A study of Mus musculus with 4 samples.

Results

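Chronic glomerulonephritis (GN), an inflammation of the filtering units of the kidney, was compared with saline treatment in whole kidneys of mice that drank water. The comparison asks which transcripts differ between the 2 groups, and is the log2 value on the array titled GN+Water minus that on the array titled Saline+Water, with 1 array in each group. Where a gene had several probe sets, the one with the greatest mean level across the 4 arrays of the series stood for it. Genes whose mean lay below the 40th percentile over all probe sets, 6.27 on the log2 scale, were left out, and 8207 of 12394 genes remained. That mean includes the GN arrays, so a gene low under saline could be kept through its GN levels. Counts of listed genes above saline are therefore not independent of this limit. At this limit, Il17b and Lgals12 were just kept with differences of −0.08 and −0.23, and Fgf22 and Epha2 were just left out with differences of −1.26 and 0.00.

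The mice were C57BL/6, labelled male and 17 weeks old. GN mice were given 10 mg of horse spleen apoferritin intraperitoneally on 5 days a week and 100 µg of Salmonella minnesota lipopolysaccharide (LPS) on 3 occasions a week, for 6 weeks from an age of about 8 weeks. Saline mice were given 0.15 M NaCl and no LPS, so the contrast holds the antigen and the adjuvant together. The other 2 arrays, Saline+Captopril and GN+Captopril, came from mice treated in the same ways that also received captopril, an inhibitor of angiotensin converting enzyme, at 100 mg/kg/day in the drinking water. Kidneys were taken after 9 weeks. Each group had 6 mice, and whether 1 mouse or a pool was hybridised is not stated in the labels. A difference between single arrays has no replicate check, so no error or p-value accompanies it.

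Apoferritin is a foreign protein against which mice make antibodies, and complexes of antigen and antibody lodge in the glomerulus. C1q, the recognition unit of the classical complement pathway, binds such complexes, and Fc receptors on macrophages bind the antibody in them. Macrophages and lymphocytes then gather around glomeruli and tubules, and injured tubule cells and fibroblasts can lay down matrix. The mouse kidney is also known for large differences between males and females in transporters and cytochrome P450 enzymes of the proximal tubule, many of them set by androgen.

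Umod and Slc34a1, genes that mark the kidney, were high on all 4 arrays. Each of the 2 arrays of the contrast stood apart from the other arrays. On Saline+Water the median of 18 spike-in probe sets was 10.84 on the log2 scale, against 7.46 to 7.89 on the other arrays, and that of 27 negative-control probe sets was 4.17 against 3.63 to 3.70. The median of 3 controls for 18S ribosomal RNA was 6.32 on Saline+Water, against 7.74 to 8.30 on the other arrays. The Pearson correlation of Saline+Water with the other arrays over 22690 probe sets was 0.945 to 0.966, against 0.982 to 0.994 among the other 3. On the array titled GN+Water the sex-linked transcripts went against the male label. Xist, the RNA that coats the inactive X chromosome, had log2 levels of 5.21 and 5.18 under saline and 8.97 and 5.02 under GN, where each pair gives the array of mice on water first and that of mice on captopril second, here and below. The Y-linked translation factor gene Eif2s3y had levels of 8.02 and 8.29 under saline and 3.43 and 8.19 under GN. The Y-linked demethylase gene Uty had levels of 6.30 and 6.30 under saline and 4.27 and 6.34 under GN, and a second probe set of it had 4.07 and 6.24 under saline and 3.53 and 6.18 under GN. Kdm5d, another such gene, had levels of 4.63 and 5.69 under saline and 3.52 and 5.64 under GN on its brightest probe set. Another probe set of Kdm5d had 5.255 and 4.39 under saline and 4.33 and 4.36 under GN. A further one had 4.53 and 4.13 under saline and 3.82 and 4.11 under GN. Eif2s3y and the first Uty probe set were thus low on the array titled GN+Water alone. The second Uty probe set and the brightest of Kdm5d were also near background on Saline+Water. The other Kdm5d probe sets were low on both captopril arrays too, and highest on Saline+Water. The array is called the array labelled GN+Water from here on, and on it GN and the discordant sex markers cannot be told apart. Differences from Saline+Water are therefore given with the level on Saline+Captopril or the difference from it, and with the level on GN+Captopril, an array with Y-linked transcripts and low Xist.

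Relative to Saline+Water, 849 genes (10.3% of those kept) were at least 2-fold higher on the array labelled GN+Water and 363 (4.42%) at least 2-fold lower. Relative to Saline+Captopril, 205 (2.5%) were higher and 92 (1.12%) lower by that measure. Higher than both saline arrays by at least 2-fold were 175 genes (2.13%), 20.6% of the 849. Lower than both by as much were 65 genes (0.792%), 17.9% of the 363. For 141 of the 849 genes and 37 of the 363 the sign turned when Saline+Captopril took the place of Saline+Water. The 5th and 95th percentiles of the difference over all genes kept were −0.96 and 1.44 relative to Saline+Water and −0.45 and 0.68 relative to Saline+Captopril, around medians of 0.00 and −0.01.

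The genes fell into 4 patterns over the 4 arrays. Antibody, macrophage, C1q, chemokine and interferon-induced genes led a group of 46 (0.56% of those kept) that was at least 2-fold higher on both GN arrays than on both saline arrays, and 0 genes were lower in this way. A further 129 genes reached 2-fold above both saline arrays on the array labelled GN+Water but not on GN+Captopril. All 65 genes lower than both saline arrays likewise reached 2-fold on the array labelled GN+Water alone. GN+Captopril was not above both saline arrays at all in 32 of the 175 higher genes. It was not below both at all in 54 of the 65 lower ones. In 397 of the 849 higher genes and 102 of the 363 lower ones, Saline+Water alone stood at least 2-fold from the other 3 arrays, which lay within 2-fold of each other. The remaining 277 higher and 196 lower genes showed none of these patterns. In 67 of the 175 genes above both saline arrays and 63 of the 65 below them, the array labelled GN+Water stood at least 2-fold from GN+Captopril too. These groups are defined by the levels themselves and are a description of them.

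**Figure D1:**
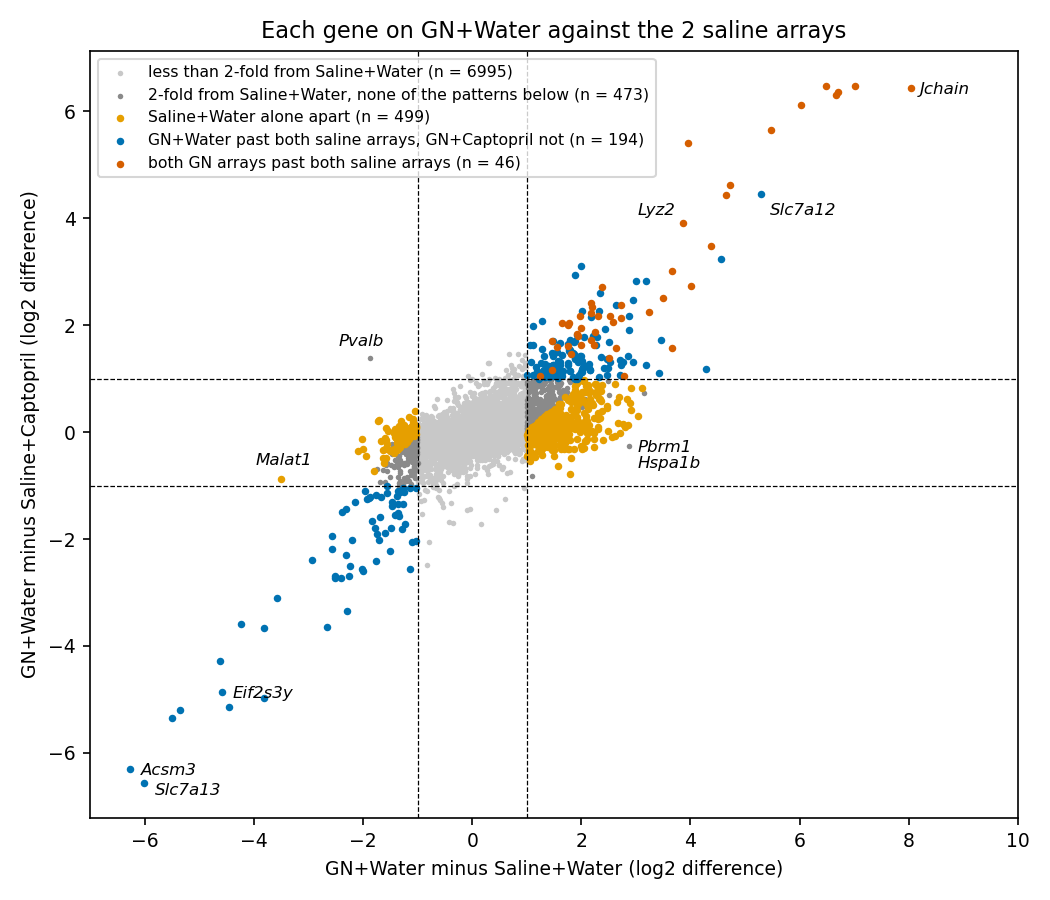
Difference of each of the 8207 genes on the array labelled GN+Water from Saline+Water (x axis, log2) and from Saline+Captopril (y axis, log2), with dashed lines at a 2-fold difference and colours for the pattern over the 4 arrays. The 46 genes higher on both GN arrays lie in the upper right, Acsm3 and Slc7a13 in the lower left, and the 499 genes in which Saline+Water alone was apart lie near the horizontal zero.

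A second probe set for the same gene, also past the filter, gave a partial check of these patterns within the same RNA. The filter mean of that probe set includes the GN arrays, and dimmer probe sets were left out. Its counts above saline are therefore not independent of the filter. Among the 46 genes higher on both GN arrays, 14 had several probe sets and 12 had a second one past the filter. Of these 12, 11 pointed the same way and 10 were at least 2-fold higher than Saline+Water. Among the 65 lower genes 19 had one, of which 18 pointed the same way and 17 were at least 2-fold lower. Among the 397 higher genes in which Saline+Water alone was apart, 201 had a second probe set, of which 126 pointed the same way and 49 were at least 2-fold higher. Over all genes kept, 2947 had a second probe set, of which 1481 were higher and 377 at least 2-fold higher. Counted downward, 1439 of the 2947 were lower and 201 at least 2-fold lower. A second probe set was thus at least 2-fold from Saline+Water in 10 of 12, 17 of 19 and 49 of 201 genes of these groups.

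**Figure D2:**
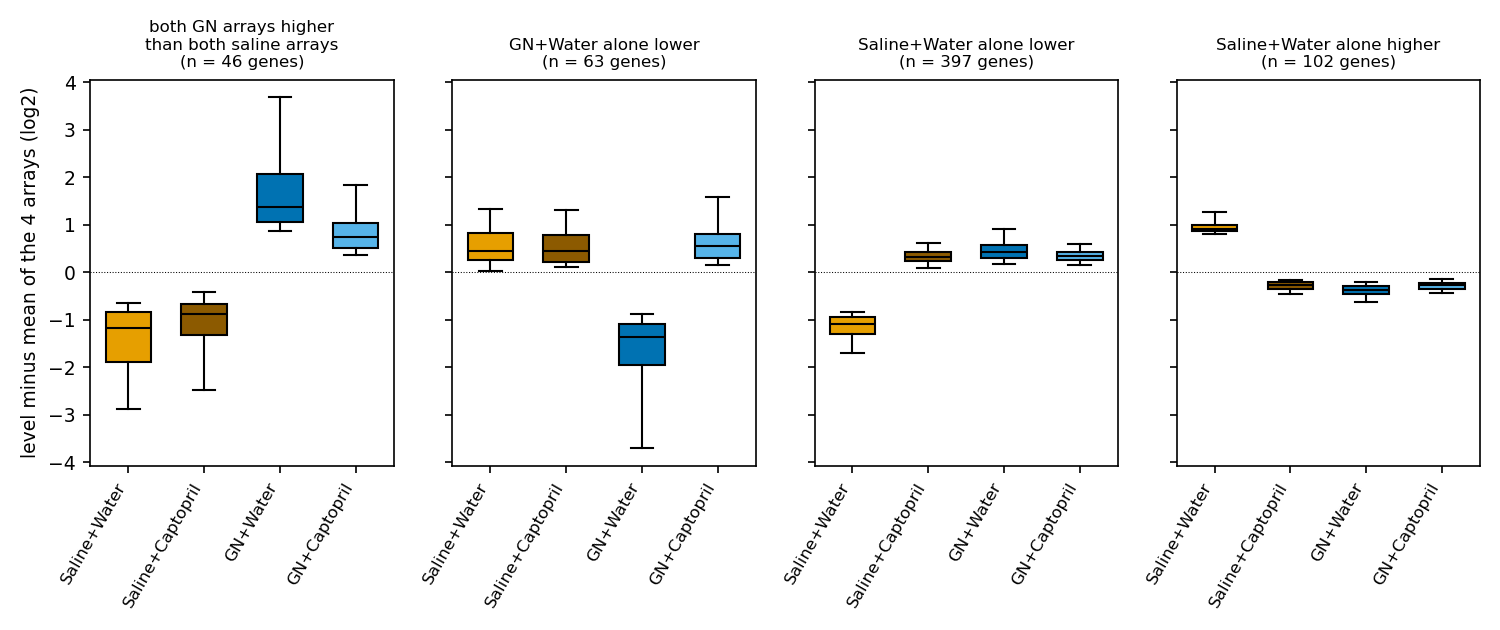
Level minus the mean of the 4 arrays (y axis, log2) for the genes of 4 patterns, by array, with boxes for the quartiles, a line at the median and whiskers at the 5th and 95th percentiles. In the 46 genes of the left panel GN+Captopril lies between the saline arrays and the array labelled GN+Water, while in the 63 genes lower on the array labelled GN+Water alone it lies with the saline arrays; the genes were chosen by these values.

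Antibody transcripts had the largest differences of the contrast, and they were high on both GN arrays. Of 23 genes listed for antibody and plasma cells, 15 had a probe set and 9 were kept. 5 of the 9 were at least 2-fold higher than both saline arrays, against 2.13% of all genes kept. The median difference of the 9 was 6.02 from Saline+Water and 6.13 from Saline+Captopril, and GN+Captopril stood 3.50 above Saline+Captopril; the same medians over all genes kept were 0.00, −0.01 and 0.00. With probe sets averaged within each gene in place of the brightest one, the median from Saline+Water was 0.76, and without the filter on low means it was 1.07. In whole tissue, more cells of a type and more RNA per cell cannot be told apart.

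Jchain, which links antibody units into polymeric IgM and IgA, had levels of 4.41 and 6.02 under saline and 12.46 and 10.45 under GN. On Saline+Water it was near background, meaning not above the 90th percentile of that array's negative controls. The array labelled GN+Water was at least 201-fold above it and 86.6-fold above Saline+Captopril. Ighm, which encodes the heavy chain of IgM, had levels of 6.94 and 7.29 under saline and 13.65 and 11.96 under GN, which put the array labelled GN+Water 105-fold and 81.9-fold above the saline arrays. In both genes GN+Captopril lay between the saline arrays and the array labelled GN+Water. Ighg3, the heavy chain of IgG3, had levels of 6.63 and 6.52 under saline and 12.65 and 10.07 under GN. The kappa light chain gene Igk had levels of 5.05 and 5.41 under saline and 11.72 and 8.92 under GN. The lambda variable gene Iglv1 had levels of 5.44 and 5.97 under saline and 12.46 and 10.41 under GN. In these heavy, kappa and lambda chain genes both GN arrays thus lay above both saline arrays, with the array labelled GN+Water the highest.

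The variable kappa genes were high on both GN arrays too. Igkv8-30 had levels of 6.06 and 6.05 under saline and 12.54 and 11.09 under GN, and Igkv6-14, which started from a higher value on Saline+Water than on Saline+Captopril, had 6.34 and 4.88 under saline and 10.29 and 7.91 under GN. Igkv15-103, near background on Saline+Water, had 4.81 and 5.02 under saline and 9.46 and 7.55 under GN, at least 25.1-fold and 21.7-fold above the saline arrays. Igha, the heavy chain of IgA, did not share this, with levels of 7.59 and 7.41 under saline and 8.15 and 7.34 under GN and GN+Captopril the lowest. Antibody genes share sequence, so a probe set may read several of them, and 8 of 11 probe sets of Ighm, 2 of 4 of Ighg3 and 1 of 2 of Iglv1 were higher than on Saline+Water.

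Genes of the plasma cell and B cell themselves had smaller differences than the antibody chains. Sdc1, the proteoglycan CD138 of plasma cells that epithelia also make, had levels of 6.22 and 6.79 under saline and 7.77 and 7.20 under GN. Xbp1, the transcription factor of the secretory programme, had 11.10 and 11.33 under saline and 11.56 and 11.71 under GN, a span of less than 2-fold. The B cell coactivator gene Pou2af1, left out by the filter on low means, was near background on both saline arrays and had levels of 7.45 and 5.10 under GN. Few B cell genes passed the filter, 3 of 16 listed. Of these, the receptor gene Cd72 had levels of 6.08 and 6.23 under saline and 7.37 and 6.80 under GN, and the adaptor gene Blnk had 7.87 and 8.08 under saline and 9.02 and 8.32 under GN.

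Macrophage and dendritic cell genes were higher as a group. Of 21 kept members (30 listed), 17 were at least 2-fold higher than Saline+Water, and the same 17 were at least 2-fold higher than Saline+Captopril too, with 0 lower. Over all genes kept these shares were 10.3% for Saline+Water and 2.13% for both. The median difference of the list was 1.80 from Saline+Water and 1.69 from Saline+Captopril, and 0.96 between GN+Captopril and Saline+Captopril. Lyz2, the lysozyme of macrophages, had levels of 8.86 and 8.81 under saline and 12.72 and 12.01 under GN, 14.5-fold and 15.1-fold above the saline arrays. Lyz1, a near-identical paralog that its probe set may not tell apart from Lyz2, had levels of 8.99 and 9.88 under saline and 13.36 and 12.70 under GN. Adgre1, a surface receptor of tissue macrophages, had levels of 7.26 and 7.20 under saline and 9.43 and 8.41 under GN. In all 3 genes the saline arrays were the 2 lowest, GN+Captopril came next and the array labelled GN+Water was the highest.

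Some members depended on which saline array was the baseline. Ctss, the protease that trims the invariant chain in antigen-presenting cells, had levels of 8.08 and 9.08 under saline and 11.32 and 10.63 under GN, a 9.45-fold difference from Saline+Water and a 4.74-fold difference from Saline+Captopril. Ms4a7, a membrane protein gene of macrophages, had levels of 5.91 and 7.18 under saline and 9.92 and 9.06 under GN, with differences of 16.1-fold and 6.68-fold. Ptprc, the CD45 phosphatase of white blood cells, had levels of 5.98 and 7.71 under saline and 9.43 and 8.67 under GN, with differences of 10.96-fold and 3.29-fold. In these genes Saline+Water lay 0.997, 1.27 and 1.74 below Saline+Captopril on the log2 scale. Members with little difference were Csf1r, the receptor for macrophage growth factor, with levels of 10.34 and 10.21 under saline and 10.999 and 10.55 under GN, and the scavenger receptor gene Msr1, with 6.40 and 6.16 under saline and 6.41 and 6.27 under GN.

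Several Fc receptor genes were higher on both GN arrays. The activating receptor gene Fcgr3 had levels of 6.75 and 6.79 under saline and 8.74 and 7.86 under GN, 3.99-fold and 3.87-fold above the saline arrays. Fcgr4, another activating receptor of myeloid cells, had levels of 6.01 and 6.51 under saline and 7.92 and 7.38 under GN. Fcer1g, the signalling chain they share, had levels of 7.67 and 7.88 under saline and 9.44 and 8.85 under GN. All 3, and the DAP12 adaptor gene Tyrobp at 7.94 and 8.08 under saline and 9.87 and 9.22 under GN, were higher on both GN arrays than on either saline array. So was Fcgr1, the high-affinity activating receptor that the filter on low means left out, with levels of 5.74 and 5.41 under saline and 6.60 and 6.21 under GN. Fcgr2b, the inhibitory receptor, had levels of 10.05 and 10.05 under saline and 10.18 and 10.05 under GN on its brightest probe set, but 3 of its 4 probe sets were higher than on Saline+Water, one by 1.02 on the log2 scale. Fcgrt, the neonatal Fc receptor that epithelia and endothelium carry, had levels of 11.02 and 10.90 under saline and 10.87 and 10.95 under GN. On the probe sets given, the last 2 genes were within 2-fold on the 4 arrays. Over the 10 kept genes of Fc receptors and their signalling the medians were 0.79 and 0.59 from the saline arrays, and 4 of the 10 were at least 2-fold above both (2.13% of all genes kept).

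The phagocyte oxidase makes superoxide. Its membrane subunit gene Cybb had levels of 6.26 and 5.86 under saline and 7.91 and 7.37 under GN, 3.13-fold and 4.12-fold above the saline arrays. The small GTPase gene Rac2, which activates it in white blood cells, had levels of 7.21 and 6.74 under saline and 8.18 and 7.59 under GN. The partner subunit gene Cyba, with 12.84 and 13.01 under saline and 12.84 and 13.02 under GN, and the tubular oxidase gene Nox4, with 11.76 and 12.01 under saline and 12.06 and 11.57 under GN, were within 2-fold on the 4 arrays. Cybb and Rac2 were thus higher on both GN arrays than on both saline arrays, and Cyba and Nox4 were not.

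The C1q chains led the complement genes. C1qb had levels of 8.23 and 8.58 under saline and 10.96 and 10.06 under GN, 6.63-fold and 5.22-fold above the saline arrays. C1qa had levels of 8.89 and 8.75 under saline and 11.09 and 10.05 under GN. C1qc had levels of 8.06 and 7.82 under saline and 10.23 and 9.47 under GN. All 3 chains were at least 2-fold higher on both GN arrays than on both saline arrays. Of the proteases that C1q activates, C1s1 had levels of 7.56 and 7.76 under saline and 8.83 and 8.11 under GN and C1ra of 7.59 and 7.35 under saline and 8.43 and 7.99 under GN. Serping1, the inhibitor of those proteases, had levels of 9.42 and 9.92 under saline and 11.18 and 10.52 under GN. C3ar1, a myeloid receptor for a fragment of C3, had levels of 6.16 and 6.80 under saline and 7.94 and 7.43 under GN. C1s1 was at least 2-fold above both saline arrays and C1ra above Saline+Captopril only, and on GN+Captopril Serping1 and C3ar1 were within 2-fold of Saline+Captopril.

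Genes of the other complement steps varied. Cfi, the protease that inactivates C3b, had levels of 7.57 and 7.88 under saline and 9.05 and 8.07 under GN, at least 2-fold above both saline arrays on the array labelled GN+Water. The alternative pathway gene Cfb, with levels of 11.74 and 11.56 under saline and 11.26 and 11.59 under GN, and the lectin pathway gene Masp1, with 7.06 and 7.84 under saline and 6.52 and 7.60 under GN, were lowest on the array labelled GN+Water. In the list as a whole, 7 of 14 kept members were at least 2-fold higher than both saline arrays (2.13% of all genes kept) and 0 lower. The medians were 1.05 and 1.07 from the saline arrays, and 0.27 between GN+Captopril and Saline+Captopril.

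The promoters of C1qc and Ctss, genes higher on both GN arrays, are shown because they carry the letters GAGGAAGT, a form of the site for PU.1, a transcription factor of myeloid cells. The sequences are from RefSeq, build GRCm38.p6, and run from 250 bases before to 50 after the gene start on the strand of the gene. In both it reads on the opposite strand, so the capitals are its complement. C1qc lies on the minus strand at chr4:136892865-136893164, and its capitals begin 195 bases before the start. Ctss lies on the plus strand at chr3:95526536-95526835, with capitals that begin 2 bases before the start and run across it. The other capitals in Ctss, 21 bases before the start, are the interferon motif described further on.
C1qc: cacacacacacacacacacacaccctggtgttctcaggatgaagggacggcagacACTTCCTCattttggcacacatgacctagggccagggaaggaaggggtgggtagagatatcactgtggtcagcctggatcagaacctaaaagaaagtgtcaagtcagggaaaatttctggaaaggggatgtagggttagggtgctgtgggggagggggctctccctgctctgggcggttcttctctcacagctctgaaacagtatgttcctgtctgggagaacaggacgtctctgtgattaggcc
Ctss: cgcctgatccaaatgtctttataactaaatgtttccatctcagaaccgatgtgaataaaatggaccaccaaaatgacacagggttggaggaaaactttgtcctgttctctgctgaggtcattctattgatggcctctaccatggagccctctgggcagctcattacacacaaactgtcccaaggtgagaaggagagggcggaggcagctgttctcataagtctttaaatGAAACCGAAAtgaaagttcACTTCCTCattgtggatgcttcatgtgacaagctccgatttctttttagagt
Searched on both strands, GAGGAAGT occurred in a promoter of 3.69% of 27025 mouse genes. It occurred in a promoter of 4 of the 27 genes higher on both GN arrays that had one in the table, and of 3 of 17 macrophage genes. These are matches of letters only.

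**Figure D3:**
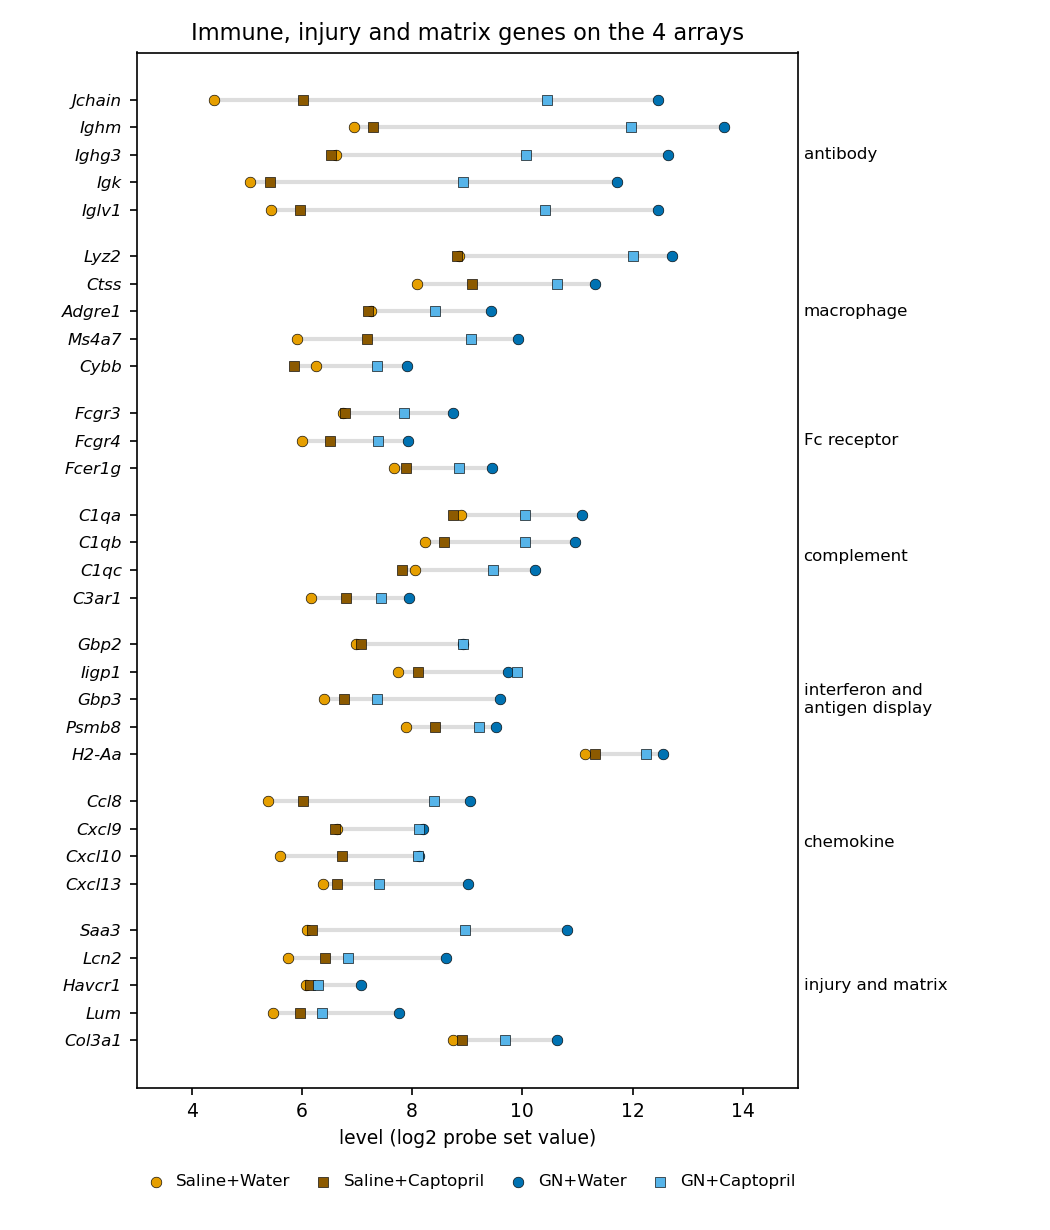
Log2 level (x axis) of immune, injury and matrix genes on the 4 arrays, 1 point per array, with circles for mice on water and squares for mice on captopril. The antibody genes and C1q chains lie well to the right of the saline points on both GN arrays, Gbp2, Cxcl9 and Cxcl10 nearly coincide on the 2 GN arrays, and Lcn2, Havcr1 and Lum lie apart on the array labelled GN+Water only.

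Several interferon-induced genes stood at nearly the same level on both GN arrays. Gbp2, a GTPase that attacks the vacuoles of microbes, had levels of 6.99 and 7.08 under saline and 8.91 and 8.93 under GN, 3.80-fold and 3.57-fold above the saline arrays. Iigp1, a GTPase with a like task, had levels of 7.74 and 8.11 under saline and 9.74 and 9.90 under GN. Gbp6 had levels of 6.16 and 6.36 under saline and 7.41 and 8.10 under GN, with GN+Captopril the higher. Gbp3 did otherwise, with levels of 6.40 and 6.76 under saline and 9.59 and 7.37 under GN, so that GN+Captopril was 0.61 above Saline+Captopril. Of 29 kept interferon response genes, 9 were at least 2-fold higher than Saline+Water and 6 higher than both saline arrays, against 10.3% and 2.13% of all genes kept. The medians were 0.75 and 0.86 from the saline arrays and 0.48 between the captopril arrays. Irf1, a transcription factor of the pathway, had levels of 8.88 and 8.32 under saline and 8.75 and 8.66 under GN, and was not higher under GN than on Saline+Water.

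The chemokines that interferon-gamma induces did the same. Cxcl9 had levels of 6.64 and 6.60 under saline and 8.19 and 8.12 under GN, 2.93-fold and 3.02-fold above the saline arrays. Cxcl10 had levels of 5.60 and 6.73 under saline and 8.12 and 8.11 under GN, and Saline+Water was its lowest. Ccl5, a chemokine of activated T cells, had levels of 6.55 and 7.15 under saline and 8.78 and 8.76 under GN. In these 3 genes the GN arrays were within 0.5 of each other on the log2 scale, as 12 of the 46 genes higher on both GN arrays were. Ccl8, a chemokine that attracts monocytes, had levels of 5.39 and 6.03 under saline and 9.05 and 8.39 under GN. Cxcl13, which draws B cells into follicles, had levels of 6.38 and 6.64 under saline and 9.02 and 7.40 under GN, with the array labelled GN+Water more than 2-fold above the other 3. 7 of 15 kept chemokine genes were at least 2-fold above both saline arrays, against 2.13% of all genes kept, with medians of 1.55 and 1.17 from them. Without the filter on low means the median from Saline+Water was 0.43. Ackr3, a receptor that scavenges chemokines, was 3.48-fold above Saline+Water and not above Saline+Captopril, at levels of 8.44 and 10.39 under saline and 10.24 and 9.56 under GN.

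T cell and adhesion genes gave smaller values. Cd3d, a chain of the T cell receptor complex, had levels of 5.96 and 6.08 under saline and 7.01 and 6.43 under GN. Nkg7, of cytotoxic granules, had levels of 6.23 and 6.12 under saline and 6.99 and 6.96 under GN. Cd3e, another chain of that complex, had levels of 7.31 and 7.13 under saline and 7.13 and 7.06 under GN and showed no difference of that kind. 1 of 7 kept T and NK cell genes, Ccl5, was at least 2-fold above both saline arrays (2.13% of all genes kept), and the medians were 0.68 and 0.87. Of the adhesion genes, the leukocyte integrin gene Itgb2 had levels of 6.78 and 6.52 under saline and 8.53 and 7.82 under GN and its list 2 of 9 kept members above both saline arrays by 2-fold, against that same 2.13%. The second of these was Vcam1, which holds white blood cells to endothelium and is made by injured tubules, at 7.19 and 7.12 under saline and 8.80 and 7.89 under GN.

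Several class II genes, which show antigen to T cells, were moderately higher on both GN arrays. The class II chain gene H2-Ab1 had levels of 10.09 and 10.40 under saline and 11.55 and 11.43 under GN. H2-Aa had levels of 11.14 and 11.32 under saline and 12.55 and 12.24 under GN. Cd74, the invariant chain, had levels of 11.43 and 11.20 under saline and 12.42 and 12.31 under GN. In these genes and in H2-Eb1 the lower GN array exceeded the higher saline array, by 1.03 for H2-Ab1, 0.92 for H2-Aa, 0.88 for Cd74 and 0.90 for H2-Eb1 on the log2 scale. Ifi30, a thiol reductase of the same route, had levels of 10.37 and 10.14 under saline and 10.25 and 10.25 under GN. Over 8 kept class II genes the medians were 1.002 and 1.02 from the saline arrays and 0.88 between GN+Captopril and Saline+Captopril. The class II difference was thus nearly as large between the captopril arrays. Of the class I route, the immunoproteasome subunit gene Psmb8 had levels of 7.89 and 8.42 under saline and 9.52 and 9.21 under GN and B2m, the light chain of class I, 11.79 and 12.56 under saline and 13.24 and 13.28 under GN, with Saline+Water the lowest in both.

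Promoters of 2 genes at nearly equal levels on both GN arrays, Gbp2 and Cxcl10, and of 2 class II genes, H2-Aa and H2-Eb1, are shown for motifs known from their regulation. In Gbp2 and Cxcl10 the capitals mark GAAA and GAAA with any 2 bases between them, a core of the interferon-stimulated response element, which begins 59 and 213 bases before the start and in Gbp2 reads on the opposite strand. In H2-Aa and H2-Eb1 they mark CTGATTGG, the Y box of class II promoters, 51 and 62 bases before the start. Gbp2 lies on the plus strand at chr3:142620413-142620712 and Cxcl10 on the minus strand at chr5:92348840-92349139. H2-Aa lies on the minus strand at chr17:34287774-34288073 and H2-Eb1 on the plus strand at chr17:34305617-34305916. The letters of the Y box also occur on the opposite strand in the Cxcl10 promoter, 54 bases before the start, and are in lower case there.
Gbp2: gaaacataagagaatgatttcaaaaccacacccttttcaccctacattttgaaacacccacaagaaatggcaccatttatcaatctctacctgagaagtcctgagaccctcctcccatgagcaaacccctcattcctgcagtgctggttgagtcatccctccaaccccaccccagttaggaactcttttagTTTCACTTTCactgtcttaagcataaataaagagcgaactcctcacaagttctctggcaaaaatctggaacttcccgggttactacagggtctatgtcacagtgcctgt
Cxcl10: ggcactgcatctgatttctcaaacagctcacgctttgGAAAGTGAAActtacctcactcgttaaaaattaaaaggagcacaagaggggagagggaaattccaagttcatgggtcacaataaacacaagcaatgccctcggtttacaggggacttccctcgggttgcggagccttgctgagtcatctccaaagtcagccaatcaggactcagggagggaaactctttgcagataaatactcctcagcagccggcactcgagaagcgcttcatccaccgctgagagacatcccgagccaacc
H2-Aa: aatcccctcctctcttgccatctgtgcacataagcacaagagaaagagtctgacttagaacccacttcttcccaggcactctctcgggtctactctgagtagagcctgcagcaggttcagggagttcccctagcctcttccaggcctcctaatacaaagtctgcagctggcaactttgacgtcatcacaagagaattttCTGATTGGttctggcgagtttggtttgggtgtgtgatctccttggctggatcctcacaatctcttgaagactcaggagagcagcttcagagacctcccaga
H2-Eb1: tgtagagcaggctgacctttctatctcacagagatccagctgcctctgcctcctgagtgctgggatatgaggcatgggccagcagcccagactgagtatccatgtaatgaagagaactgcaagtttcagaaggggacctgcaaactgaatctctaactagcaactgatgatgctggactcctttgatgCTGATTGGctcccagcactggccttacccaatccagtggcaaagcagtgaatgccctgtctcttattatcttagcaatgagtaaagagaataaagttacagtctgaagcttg
Searched on both strands, this interferon motif occurred in a promoter of 3.99% of the 27025 genes. It occurred in a promoter of 13 of 23 interferon response genes and of 6 of the 27 genes higher on both GN arrays. CTGATTGG occurred in a promoter of 4.70% of the 27025 genes and of 2 of 5 class II genes. TTCNNNGAA, the gamma-activated site, occurred in a promoter of 9.55% of the 27025 genes, of 11 of the 23 interferon response genes and of 0 of the 27. A promoter without the letters says only that they are not in that window.

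Several acute phase genes were highest on the array labelled GN+Water. Saa3, a serum amyloid gene induced by LPS and cytokines, had levels of 6.09 and 6.18 under saline and 10.80 and 8.95 under GN, 26.3-fold and 24.6-fold above the saline arrays, and was high on GN+Captopril too. Lcn2, the iron-binding lipocalin used as a marker of tubular damage, had levels of 5.74 and 6.43 under saline and 8.61 and 6.83 under GN. Cp, the ferroxidase ceruloplasmin, had levels of 8.78 and 9.30 under saline and 11.23 and 9.95 under GN. In Lcn2 and Cp, GN+Captopril was within 2-fold of Saline+Captopril and the array labelled GN+Water more than 2-fold above the other 3. Of 9 kept acute phase genes 4 were at least 2-fold higher than both saline arrays (2.13% of all genes kept), with medians of 1.002 and 1.04 from them and 0.41 between the captopril arrays. Without the filter on low means the median from Saline+Water was 0.046. Fga, a fibrinogen chain gene, went the other way from Saline+Water, at levels of 9.20 and 8.01 under saline and 8.15 and 7.90 under GN.

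Targets of NF-kB, the factor that LPS activates, were mixed. Cebpd, a transcription factor of the acute phase, had levels of 6.03 and 6.50 under saline and 8.97 and 7.17 under GN. Cd14, the co-receptor for LPS, had levels of 6.78 and 7.04 under saline and 8.58 and 7.84 under GN. Nfkbia, the inhibitor that NF-kB induces, had levels of 8.50 and 10.21 under saline and 11.12 and 10.58 under GN, 6.13-fold and 1.88-fold above the saline arrays. Of these, Cebpd and Cd14 were at least 2-fold above both saline arrays and Nfkbia was not. The other probe set of Cebpd was only 0.10 above Saline+Water on the log2 scale, so its size depends on the probe set. The cytokine gene Tnf had levels of 7.13 and 6.20 under saline and 6.16 and 6.12 under GN, with Saline+Water the highest, and Il1b 6.65 and 6.64 under saline and 7.08 and 6.91 under GN. Over 16 kept members the medians were 0.25 and 0.47, and 3 were at least 2-fold above both saline arrays (2.13% of all genes kept). Members of the STAT and SOCS list went both ways, 2 of 13 at least 2-fold above both saline arrays and 1 below. The shares over all genes kept were 2.13% and 0.792%. Igf1, the growth factor, had levels of 6.27 and 7.23 under saline and 9.14 and 8.08 under GN. Bcl6, a transcriptional repressor, had levels of 8.33 and 8.83 under saline and 7.10 and 7.66 under GN, lower on both GN arrays than on both saline arrays.

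Some tubular injury genes had higher levels on the array labelled GN+Water, and as a list they lay close to saline on GN+Captopril. 6 of 28 kept members were at least 2-fold higher than both saline arrays and 1 was lower, against 2.13% and 0.792% of all genes kept, with medians of 0.84 and 0.56, and of 0.15 between the captopril arrays. Havcr1, the KIM-1 marker of the injured proximal tubule, had levels of 6.07 and 6.14 under saline and 7.08 and 6.30 under GN, 2.02-fold and 1.92-fold above the saline arrays. Anxa1, a resolver of inflammation, had levels of 7.88 and 8.51 under saline and 9.82 and 9.18 under GN. Cd44, a matrix receptor of injured tubules left out by the filter on low means, had levels of 4.38 and 5.48 under saline and 7.88 and 7.09 under GN. Havcr1 was within 2-fold of saline on GN+Captopril, while Cd44 was more than 2-fold above both saline arrays there. The lower member was Pigr, which carries polymeric antibody across epithelia, with levels of 10.70 and 9.80 under saline and 8.32 and 9.75 under GN.

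A like share of interstitial matrix genes was higher on the array labelled GN+Water. Lum, a proteoglycan that binds collagen, had levels of 5.48 and 5.97 under saline and 7.76 and 6.36 under GN, 4.86-fold and 3.44-fold above the saline arrays. Col3a1, a fibrillar collagen, had levels of 8.74 and 8.91 under saline and 10.62 and 9.69 under GN. Fn1, fibronectin, had levels of 7.51 and 7.97 under saline and 8.92 and 8.12 under GN. In these genes the array labelled GN+Water was the highest and GN+Captopril next. Col1a1, the main fibrillar collagen, had levels of 7.99 and 7.24 under saline and 8.19 and 7.19 under GN, and was at its highest on the 2 water arrays. 6 of 30 kept members were at least 2-fold above both saline arrays (2.13% of all genes kept), with medians of 0.63 and 0.72, and of 0.18 between the captopril arrays.

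TGF-beta and basement membrane genes depended more on the baseline. Ccn2, a target of TGF-beta, had levels of 8.69 and 9.35 under saline and 10.27 and 9.46 under GN. Tgfbr1, a receptor of TGF-beta, had levels of 8.40 and 9.54 under saline and 9.89 and 9.49 under GN. 6 of 19 kept members were at least 2-fold above Saline+Water and 1 above both saline arrays, against 10.3% and 2.13% of all genes kept. In the fibroblast and smooth muscle list S100a4 had levels of 6.34 and 6.49 under saline and 8.10 and 7.68 under GN, and the smooth muscle actin gene Acta2 9.54 and 9.48 under saline and 10.02 and 9.44 under GN. Npnt, an integrin ligand of basement membranes, had levels of 9.32 and 10.23 under saline and 11.23 and 9.71 under GN. It was the one member of 16 in its list at least 2-fold above both saline arrays (2.13% of all genes kept). The glomerular collagen gene Col4a3 had levels of 11.22 and 9.30 under saline and 9.50 and 9.09 under GN, with Saline+Water apart from the other 3.

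**Figure D4:**
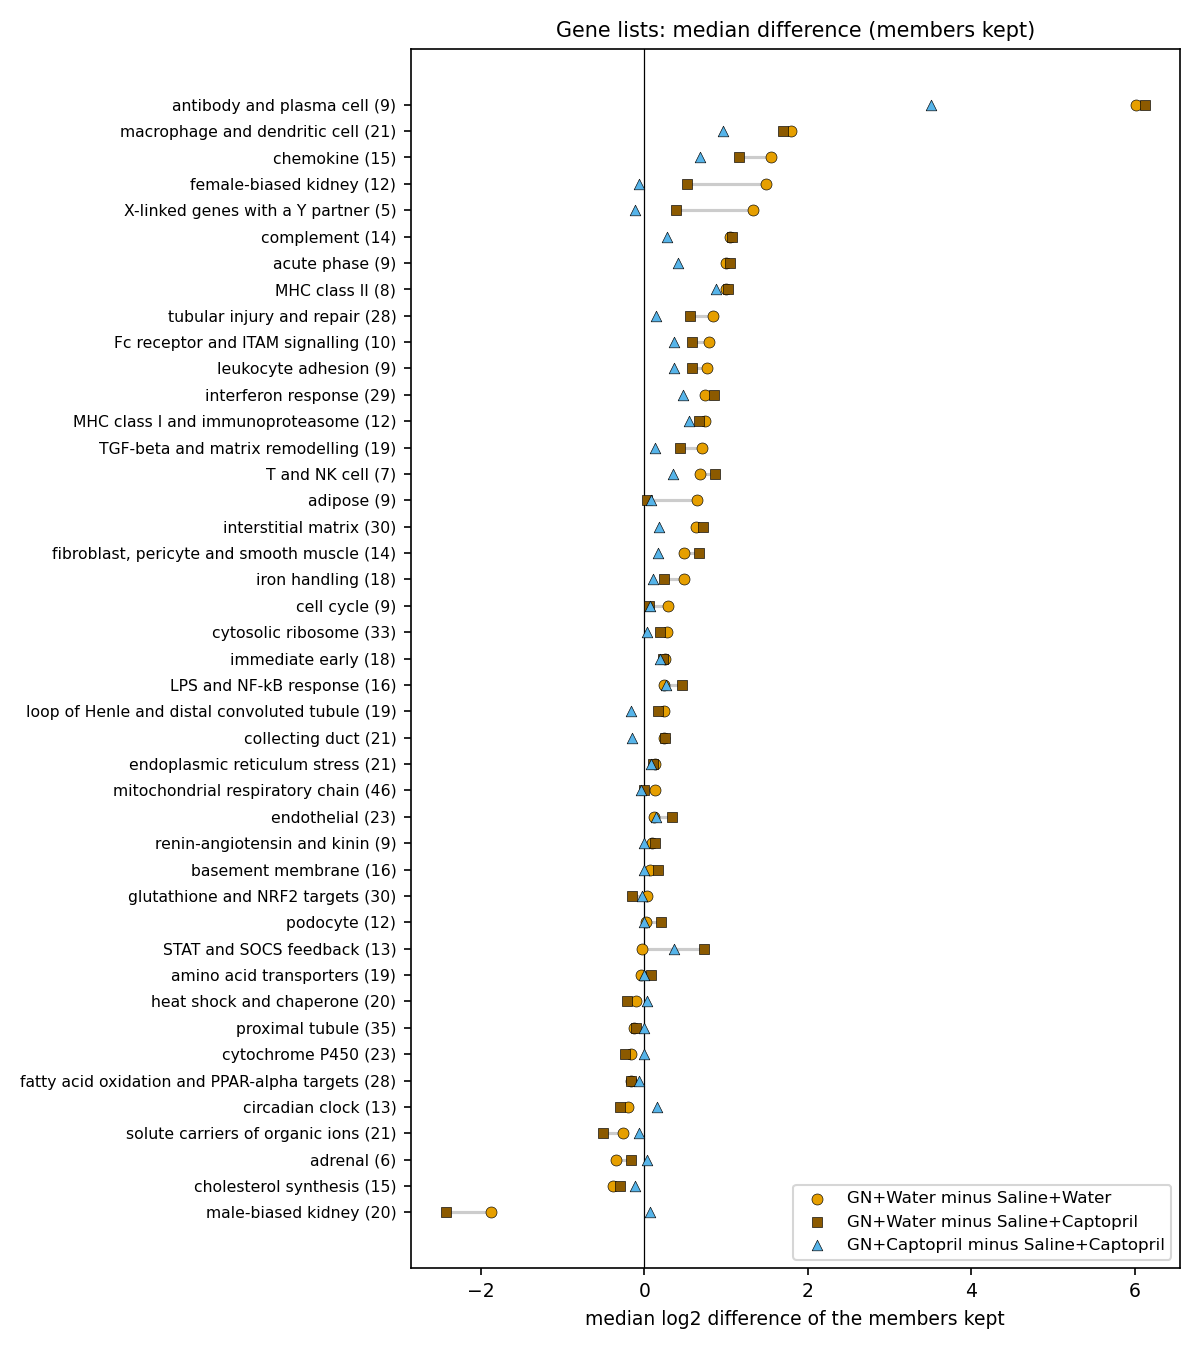
Median log2 difference (x axis) of the kept members of each gene list with at least 5 of them, whose number follows the name, for the array labelled GN+Water against each saline array and for GN+Captopril against Saline+Captopril. Antibody and macrophage lists lie to the right in all 3 comparisons, class II genes near 1 in all 3, and male-biased genes far to the left in the 2 comparisons that use the array labelled GN+Water.

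The lowest genes of the contrast included male-biased genes of the mouse kidney, on the array whose sex markers went against its label. 13 of 20 kept members were at least 2-fold lower than both saline arrays, against 0.792% of all genes kept. Their medians were −1.88 and −2.43 from the saline arrays, and 0.07 between GN+Captopril and Saline+Captopril. Acsm3, an acyl-CoA synthetase, had levels of 12.47 and 12.50 under saline and 6.20 and 12.57 under GN. Slc7a13, a transporter of acidic amino acids and cystine, had levels of 12.56 and 13.11 under saline and 6.54 and 13.20 under GN. Slco1a1, an organic anion transporter, had levels of 10.47 and 10.32 under saline and 4.96 and 10.62 under GN. In these genes GN+Captopril lay with the saline arrays and the array labelled GN+Water stood alone. Kap, a kidney gene induced by androgen, did not follow, with levels of 14.38 and 14.62 under saline and 14.38 and 14.58 under GN.

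Cytochrome P450 genes made up 6 of these 13. Cyp2j13 had levels of 11.22 and 11.07 under saline and 5.86 and 11.40 under GN. Cyp7b1, an oxysterol hydroxylase, had levels of 11.50 and 12.17 under saline and 7.03 and 12.23 under GN. Cyp2e1, which oxidises ethanol and acetone, had levels of 13.25 and 13.44 under saline and 10.75 and 13.53 under GN. Each was lowest on the array labelled GN+Water, and the other 3 arrays spanned less than 2-fold. Of 23 kept P450 genes, those 6 were at least 2-fold lower than both saline arrays and 1 was higher, against 0.792% and 2.13% of all genes kept, and the list medians were −0.16 and −0.23. Outside that family, the glucuronosyltransferase gene Ugt2b37 had levels of 9.37 and 10.54 under saline and 5.56 and 10.60 under GN and the protease inhibitor gene Pzp 10.31 and 9.96 under saline and 5.68 and 9.88 under GN, both lowest there.

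Genes listed as female-biased in the kidney went both ways on the same array. The sex bias of the listed genes was not tested here, as all mice were labelled male. Slc7a12, an amino acid transporter, had levels of 7.21 and 8.06 under saline and 12.51 and 8.38 under GN, 39.4-fold and 21.9-fold above the saline arrays. Akr1c18, which inactivates progesterone, had levels of 8.54 and 8.28 under saline and 10.88 and 8.23 under GN. Slc22a29, of the organic ion transporter family, had levels of 6.09 and 6.26 under saline and 9.09 and 5.98 under GN. 4 of 12 kept members were at least 2-fold higher than both saline arrays and 2 lower, against 2.13% and 0.792% of all genes kept, with medians of 1.48 and 0.53, and of −0.07 between the captopril arrays. One lower member was Fmo5, a flavin monooxygenase, with levels of 10.23 and 9.56 under saline and 5.98 and 9.74 under GN. The other was Slc22a22, a prostaglandin transporter, with 11.26 and 11.09 under saline and 9.43 and 11.09 under GN. Both were low on the array labelled GN+Water alone, the order seen in most of the male-biased list, so their place in this list is uncertain. Arg2, the mitochondrial arginase, is in none of the lists and had the same order as Slc7a12, with levels of 4.97 and 6.29 under saline and 9.53 and 6.61 under GN.

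Some X-linked genes with a Y-linked partner were also highest on the array labelled GN+Water. Kdm6a, a histone demethylase, had levels of 6.89 and 8.48 under saline and 9.20 and 8.31 under GN. Eif2s3x, the X-linked partner of Eif2s3y, had levels of 9.95 and 10.27 under saline and 10.74 and 10.16 under GN. In both, Saline+Water was the lowest, so the difference from Saline+Captopril, 0.72 and 0.47, was smaller than that from Saline+Water. Kdm5c went the other way from Saline+Water, with levels of 6.97 and 6.24 under saline and 6.29 and 6.05 under GN. The 5 genes had medians of 1.33 and 0.38 from the saline arrays and −0.11 between the captopril arrays.

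**Figure D5:**
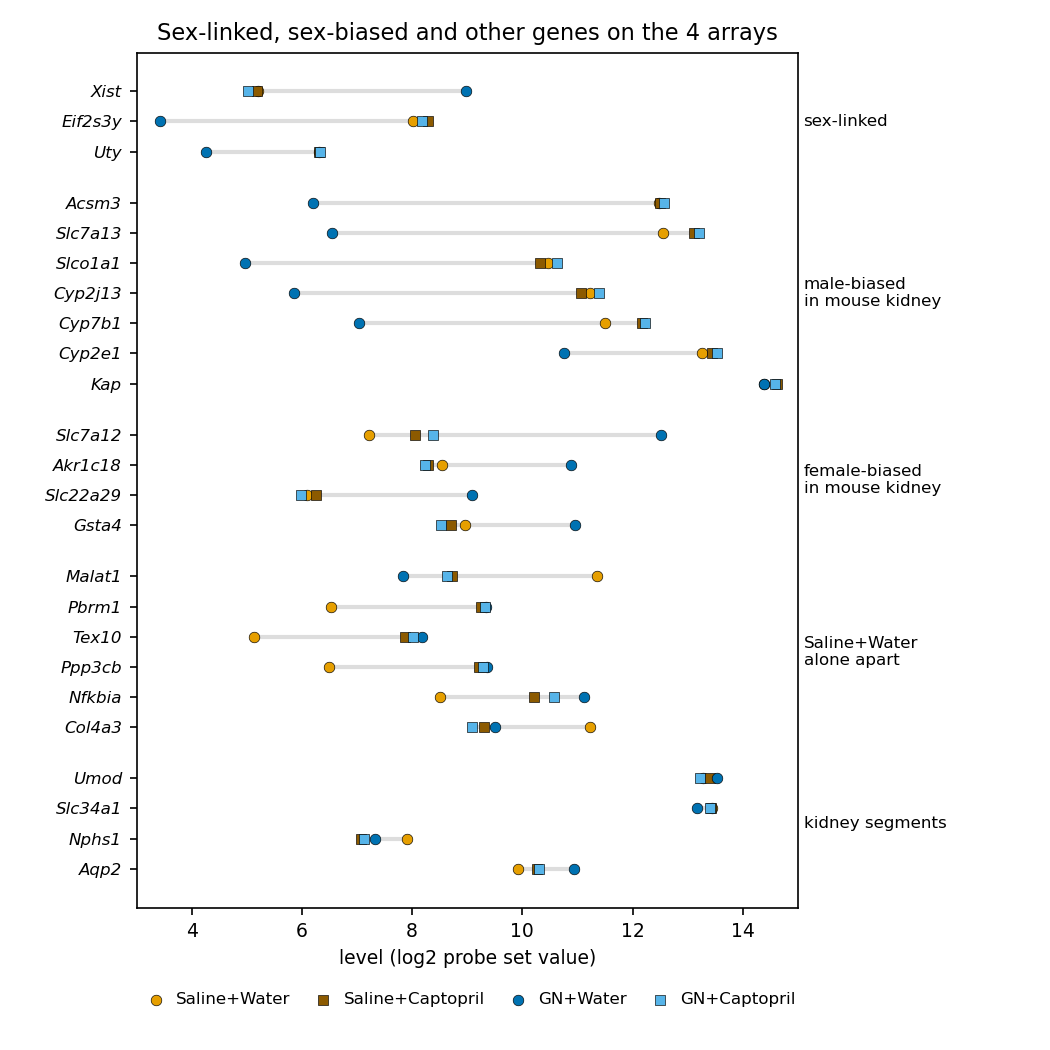
Log2 level (x axis) of sex-linked, sex-biased, Saline+Water-specific and kidney segment genes on the 4 arrays, 1 point per array, with circles for mice on water and squares for mice on captopril. Except in Kap, the array labelled GN+Water is alone in the upper 3 groups, and Saline+Water is alone in the group below them.

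Organic ion carriers of the proximal tubule clear drugs and urate from blood, and some were lower on the array labelled GN+Water. Slc22a6, the main organic anion transporter, had levels of 12.53 and 11.85 under saline and 10.60 and 12.001 under GN, 3.80-fold and 2.37-fold lower than the saline arrays. Slc22a30, of the same family, had levels of 11.09 and 11.68 under saline and 9.09 and 11.61 under GN. Slc22a8, another organic anion transporter, had levels of 12.04 and 11.75 under saline and 11.85 and 11.84 under GN. The first 2 were lower on the array labelled GN+Water and the third was within 2-fold on the 4 arrays. 5 of 21 kept carriers were at least 2-fold lower than both saline arrays and 2 higher, against 0.792% and 2.13% of all genes kept. This overlaps with the sex-biased lists above. Of the lower carriers, Slc22a30 and Slco1a1 are also in the male-biased list and Slc22a22 in the female-biased list. Slc22a29, of the higher carriers, is in the female-biased list too. Most other proximal tubule genes differed little, with 1 of 35 kept members at least 2-fold lower than both saline arrays, 0 higher, beside 0.792% and 2.13% of all genes kept, and medians of −0.12 and −0.10. Slc34a1, the phosphate transporter of that segment, had levels of 13.44 and 13.43 under saline and 13.17 and 13.41 under GN.

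Podocyte and endothelial genes had medians nearer to that of all genes. Over 12 podocyte genes the medians were 0.02 and 0.20, and over 23 endothelial genes 0.12 and 0.34, with 0 members of either list at least 2-fold from both saline arrays. Nphs1, nephrin of the slit diaphragm, had levels of 7.90 and 7.08 under saline and 7.33 and 7.12 under GN. Umod, uromodulin of the thick ascending limb, had levels of 13.28 and 13.41 under saline and 13.52 and 13.22 under GN. Both were within 2-fold on the 4 arrays. In the collecting duct Sgk1, a kinase that aldosterone induces, had levels of 9.10 and 9.70 under saline and 11.05 and 9.09 under GN. The water channel gene Aqp4 had levels of 7.21 and 6.35 under saline and 8.33 and 6.20 under GN, and like Sgk1 exceeded each of the other 3 arrays by at least 2-fold on the array labelled GN+Water. The vasopressin-regulated channel gene Aqp2 had levels of 9.91 and 10.27 under saline and 10.93 and 10.30 under GN. Pvalb, which marks the distal tubule, had levels of 9.31 and 6.05 under saline and 7.44 and 5.57 under GN, with the water array the higher of each pair.

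No gene of the renin-angiotensin list was at least 2-fold from both saline arrays, and the medians over 9 kept genes were 0.10 and 0.13. Ace, the enzyme that makes angiotensin II, had levels of 9.48 and 8.79 under saline and 8.30 and 8.82 under GN. Agt, the precursor, had levels of 9.51 and 9.25 under saline and 9.40 and 9.07 under GN. The angiotensin-degrading aminopeptidase gene Enpep had levels of 10.28 and 11.16 under saline and 10.98 and 11.10 under GN, and the peptidase gene Mme 7.35 and 9.15 under saline and 9.85 and 8.80 under GN, each lowest on Saline+Water.

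Among metabolic lists, iron handling held 2 of 18 kept genes at least 2-fold above both saline arrays (2.13% of all genes kept), Lcn2 and Cp. The iron exporter gene Slc40a1 had levels of 8.91 and 9.66 under saline and 10.48 and 9.70 under GN and the transferrin receptor gene Tfrc 10.39 and 10.32 under saline and 10.01 and 10.13 under GN. Idi1, of the isoprenoid route, was the one cholesterol synthesis gene of 15 at least 2-fold lower than both (0.792% of all genes kept). Its levels were 10.29 and 10.50 under saline and 8.94 and 10.48 under GN on its brighter probe set. Its other probe set was 1.35 above Saline+Water on the log2 scale, and the mean difference of the 2 was 0.0022, so its direction depends on the probe set. Fabp1, a fatty acid carrier, had levels of 5.40 and 7.04 under saline and 8.36 and 6.50 under GN. It was the one gene of 28 in the fatty acid list at least 2-fold above both (2.13% of all genes kept). Over 46 respiratory chain genes the differences ran from −0.47 to 0.62, with medians of 0.13 and 0.00. The respiratory chain was thus within 2-fold of Saline+Water throughout.

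Markers of fat, which adjoins the kidney, depended on the baseline. Adipoq, the hormone of fat cells, had levels of 6.24 and 7.77 under saline and 8.25 and 8.92 under GN. 2 of 9 kept adipose genes were at least 2-fold above Saline+Water (10.3% of all genes kept) and 2 at least 2-fold below Saline+Captopril (1.12%). None was past both, the medians were 0.65 and 0.04, and the part of fat in the contrast was not tested. Other lists held few genes past both saline arrays, beside 2.13% of all genes above and 0.792% below. Above both were 1 of 30 glutathione genes, 0 of 18 immediate early genes, 0 of 9 cell cycle genes and 0 of 21 endoplasmic reticulum stress genes. Below both were 1 of 13 clock genes and 0 of 6 adrenal genes.

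Genes in which Saline+Water alone was apart made up the largest of the patterns. Tex10, which takes part in ribosome assembly, had levels of 5.14 and 7.88 under saline and 8.17 and 8.02 under GN. Ppp3cb, a catalytic subunit of calcineurin, had levels of 6.49 and 9.22 under saline and 9.35 and 9.29 under GN. Pbrm1, a subunit of a chromatin remodelling complex, had levels of 6.53 and 9.24 under saline and 9.34 and 9.33 under GN. Each was far lower on Saline+Water, and the other 3 arrays nearly coincided. Malat1, a nuclear non-coding RNA, went the other way, with levels of 11.35 and 8.72 under saline and 7.84 and 8.63 under GN, as did the amino acid transporter gene Slc1a4, with 8.80 and 7.11 under saline and 6.79 and 7.31 under GN. The heat shock gene Dnajb4 was lowest on Saline+Water, with levels of 7.44 and 9.09 under saline and 9.23 and 8.56 under GN. Hspa1b, another heat shock gene, was also lowest there, at 6.93 and 10.07 under saline and 9.82 and 8.60 under GN. Its levels on the other 3 arrays spanned more than 2-fold, so Hspa1b fell outside this pattern. Differences of this pattern set Saline+Water apart from 3 arrays, of which 1 came from saline mice.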

How the data were processed

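Total RNA of mouse kidney was hybridised to 1 Affymetrix array per group, with 4 arrays of 22690 probe sets in all. The values are the authors' deposited log2 values; GCOS and RMA are named, per the submitters' processing notes, with versions and settings not given in the sources used here. No detection calls were used, and precision is limited by the number of arrays. Probe sets were named from the platform annotation and updated through Entrez IDs against the RefSeq table of GRCm38.p6. This gave 1 symbol for 20393 probe sets, 20364 of them through an Entrez ID, several symbols for 691 and none for 1606. Only probe sets with 1 symbol were used. The probe set with the greatest mean level stood for a gene, and genes with a mean below the 40th percentile, 6.27, were left out.

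Differences of log2 values were taken between arrays as deposited, with no test, since 1 array per group leaves 0 residual degrees of freedom. A gene counted as higher or lower at a 2-fold difference. A level not above the 90th percentile of its array's 27 negative controls counted as near background, and a fold against it was computed against that percentile and is a lower bound. A list is described by its counts and median, beside the share of all genes kept that passed the same limit. Because the filter mean includes the GN arrays, counts above saline include genes below the filter limit on both saline arrays, such as Jchain, Igk, Iglv1, Ccl8, Saa3, Cybb and Lum. The calculations were tested on simulated data and run in Python 3.11.15 with numpy 2.4.6, pandas 2.3.3 and matplotlib 3.10.9, and the loess alternative in R 4.3.3 with limma 3.58.1. Alternatives were another filter or threshold, other choices of probe set, other scalings and other baseline or GN arrays.

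The members and the 48 gene lists were chosen with earlier results of these data known. Genes were named if they were among the 15 highest or lowest by the difference from Saline+Water or by the smaller difference from both saline arrays, among the 5 members of a list with the largest difference, or had a role that the text describes. Ackr3, Acta2, Adgre1, C1ra, C1s1, Cd44, Cfb, Cfi, Col1a1, Csf1r, Cxcl9, Fcgrt, Fn1, Gbp6, Ifi30, Igha, Il1b, Irf1, Kap, Masp1, Msr1, Pbrm1, Pou2af1, Ppp3cb, Sdc1, Slc22a8, Slc34a1, Tex10, Tfrc, Tnf and Xbp1 fell outside this rule and were chosen after their values were seen. Il17b, Lgals12, Fgf22 and Epha2 mark the filter limit.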

Additional observations from a re-analysis of the deposited data

Results flagged for a closer look

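In 3 genes the difference between GN and saline was at least 2-fold in opposite directions in mice on water and in mice on captopril. With 1 array per group the difference between the pairs was not tested. Ces1g, a carboxylesterase gene, was −2.30 on the log2 scale between the array labelled GN+Water and Saline+Water, and 1.09 between GN+Captopril and Saline+Captopril. Dbp, a clock output gene, had values of −1.03 and 1.44 in the same comparisons. Hspa1b, a heat shock gene, had values of 2.88 and −1.47. For Hspa1b, Saline+Water was the lowest of the 4 arrays and Saline+Captopril the highest. For Ces1g and Dbp the array labelled GN+Water, whose sex-linked transcripts went against its label, was the lowest and GN+Captopril the highest.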

How the results depend on the processing

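No paired analysis was possible because each group had 1 array and the labels give no replicate numbers, and leaving out a replicate was not possible either. The values as deposited gave 849 genes at least 2-fold higher and 363 lower, and list medians of 6.02 for antibody genes, 1.80 for macrophage, 1.05 for complement, 1.002 for class II, 1.55 for chemokine, 1.002 for acute phase, −1.88 for male-biased, 1.48 for female-biased and 1.33 for X-linked. Centring the medians, quantile normalisation and cyclic loess left both counts within 1.5-fold, these medians and every named gene that passed the filter within 1.5-fold of the reported value, and the share of higher genes among those called at 63.9%, 61.2% and 70.6% against 70.0%. Both counts also stayed within 1.5-fold when genes near background or the sex-biased, sex-linked and adipose lists were left out, and when shared probe sets were left out or all probe sets averaged. The cause of the changes that follow was not tested, other than fewer or more genes under another filter or threshold. 

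Without the filter on low means, 627 genes were lower. The list medians were 1.07 for antibody genes, −0.22 for neutrophil, 0.43 for chemokine, 0.046 for acute phase and −0.090 for adipose. Under the main filter the neutrophil median was 1.35 over only 2 kept genes and the adipose median 0.65 over 9, so both changed sign. With the filter at the 60th percentile, 565 genes were higher and 235 lower. The list medians were 6.67 for antibody genes and 2.51 for macrophage. With probe sets averaged within each gene, the list median was 0.76 for antibody genes. The difference took the opposite sign in Idi1 (0.0022). Without probe sets shared between transcripts or genes, the list medians were 4.43 for antibody genes and −0.17 for neutrophil. Relative to Saline+Captopril, 205 genes were higher and 92 lower. The list medians were 0.53 for female-biased genes and 0.38 for X-linked. The difference took the opposite sign in Ackr3 (−0.15), Col4a3 (0.20), Fga (0.14), Hspa1b (−0.25) and Pvalb (1.38). Relative to the mean of both saline arrays, 375 genes were higher and 109 lower. The list median was 0.89 for chemokine genes. For GN+Captopril against Saline+Water, 171 genes were lower. The list medians were 3.44 for antibody genes, 1.11 for macrophage, 0.85 for chemokine, 0.28 for male-biased, 0.14 for female-biased and 0.17 for X inactivation and Y-linked. The last of these lists held 1 kept gene, Eif2s3y. The difference took the opposite sign in Acsm3 (0.10), Akr1c18 (−0.31), Aqp4 (−1.01), Cyp2e1 (0.28), Cyp2j13 (0.18), Cyp7b1 (0.73), Eif2s3y (0.17) and Idi1 (0.19). It also did so in Sgk1 (−0.010), Slc22a29 (−0.11), Slc22a30 (0.52), Slc7a13 (0.64), Slco1a1 (0.15) and Ugt2b37 (1.23). At a 1.5-fold threshold, 1606 genes were higher and 1255 lower. At a 4-fold threshold, 159 genes were higher and 32 lower. For GN+Captopril against Saline+Captopril, a comparison added after seeing the data that uses neither array of the contrast, 59 genes were higher and 2 lower. The list medians were 3.50 for antibody genes, 0.96 for macrophage, 0.27 for complement, 0.69 for chemokine, 0.41 for acute phase, 0.066 for male-biased, −0.070 for female-biased and −0.11 for X-linked. The difference took the opposite sign in Ace (0.030), Ackr3 (−0.83), Acsm3 (0.074), Akr1c18 (−0.052), Aqp4 (−0.15), Cyp2e1 (0.091), Cyp2j13 (0.33) and Cyp7b1 (0.060). It also did so in Dnajb4 (−0.53), Fabp1 (−0.54), Fmo5 (0.17), Hspa1b (−1.47), Kdm6a (−0.16), Mme (−0.35), Npnt (−0.52) and Sgk1 (−0.61). It did so as well in Slc1a4 (0.20), Slc22a29 (−0.28), Slc22a6 (0.16), Slc7a13 (0.089), Slco1a1 (0.30), Tgfbr1 (−0.052) and Ugt2b37 (0.061). Differences of genes near the level of the negative controls are bounds, and 1 array per group gives no measure of the spread between mice.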
